A study of Bos taurus with 6 samples.

Results

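The proteasome genes of primary bovine aortic endothelial cells were taken as every gene whose symbol in the array annotation begins with PSM, a letter from A to G and a number. The rule found 40 genes, carried by 46 probe sets, among the 9162 named genes of an Affymetrix bovine array. It used the name alone and no measured value, so the treated arrays could be tested against the basal arrays for each member. The cells were freed from bovine aorta with collagenase and grown in RPMI medium. The 3 basal arrays came from untreated plates, and the 3 treated arrays (TGFB1) from plates given 5 ng/ml TGF-beta 1 for 24 hours. According to the design text each condition was run in triplicate from 3 cultures. No label says if the cultures are from different animals, nor if arrays of both groups derive from 1 culture, so the p-values measure only the spread between these arrays, which may be technical. Values are log2 expression after RMA, a method that corrects background, equalises the arrays by quantiles and sums up the probes of a gene. Where several probe sets named a gene, the one with the highest mean over the 6 arrays was used.

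The proteasome is the protease that degrades ubiquitin-tagged proteins in the cytosol and nucleus. Its core particle is a barrel of outer alpha rings (PSMA genes), which gate the pore, and inner beta rings (PSMB genes), of which PSMB5, PSMB6 and PSMB7 carry the chymotrypsin-like, caspase-like and trypsin-like sites. The regulatory particle binds and unfolds substrates with its ATPases (PSMC genes) and recognises and removes ubiquitin with its non-ATPase subunits (PSMD genes). Under interferon the catalytic beta subunits are replaced by PSMB8, PSMB9 and PSMB10, giving the immunoproteasome, which favours peptides that fit MHC class I. The PSME genes encode activators that cap the core in place of the regulatory particle, PSMF1 encodes an inhibitor, and the PSMG genes encode assembly chaperones. Endothelial cells express the immunoproteasome at rest and increase it under inflammatory cytokines.

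No sequence of these genes is shown. The members on the array were 6 alpha ring genes, 7 constitutive beta ring genes, 3 immunoproteasome genes, 6 ATPase and 7 non-ATPase genes of the regulatory particle, 6 assembly chaperones, 3 activators, the inhibitor PSMF1 and PSME3IP1. The last matches the pattern by name only: it encodes a partner protein of the activator PSME3 and no subunit. PSMD5, PSMD9 and PSMD10 were counted as chaperones, since their products escort the ATPase base during assembly. PSMA2, PSMA8, PSMB11, PSMD3, PSMD7, PSMD8, PSMD12, PSMG4, PSME3 and PSMC3IP were not analysed here. The probe sets of the members were bright, with means over the 6 arrays from 7.66 to 12.43 log2 where the array medians were 5.88 to 5.92. Brightness depends on the probes as well as the transcript, so the levels of different genes are not set against each other. No filter on dim genes was applied, and all 40 stayed in when only genes above the median level were tested.

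The arrays did not divide by treatment alone. Basal 1, basal 2 and TGFB1 1 had negative values on the first principal component (-67.8, -38.8 and -10.3). Those of basal 3, TGFB1 2 and TGFB1 3 were positive (36.0, 39.5 and 41.4). This component took up 63.4% of the variance over all probe sets. TGFB1 1 was intermediate, lying between basal 2 and basal 3. The array sets used below follow the signs alone. The labels name no batch that corresponds to these sets. Of 9 measured endothelial markers 8 lay above the median of the probe sets. PECAM1 stood at 12.29 and CDH5 at 12.10 log2 in basal arrays, while VWF stood at 6.19, close to that median, and KDR at 5.14, below it. Of 10 measured leukocyte markers 9 lay below the median of the probe sets, with PTPRC at 3.90 and CD3E at 4.10 in basal arrays. The exception, CD14, stood above it, at 6.74 in basal and 7.10 in treated arrays, with overlapping groups.

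None of the 40 proteasome genes passed a limma adjusted p of 0.05 in the comparison of treated with basal arrays, against 1.72% of all genes tested (0.557% higher and 1.17% lower). The smallest adjusted p was 0.135, for PSMD6. At an unadjusted p under 0.05 limma counted 2 members higher and 4 lower, where all genes gave 5.99% higher and 11.4% lower. With limma-trend 0 members were called as well, with 2 higher and 1 lower at the unadjusted threshold, and with robust eBayes 0, with 2 and 4. The median difference over the 40 members was 0.02 log2, and over all genes it was -0.03. In 21 members the treated mean was the higher and in 19 the lower. All 3 treated arrays lay above all 3 basal arrays in 2 members (8.19% of all genes) and below them in 9 (15.1% of all genes), and the groups overlapped in 29. The 11 members with groups apart stand beside 23.3% of all genes. With 3 arrays a group the exact permutation test of a single gene cannot give a p below 0.1.

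The width of the intervals sets what these arrays can show. For 28 of the 40 members the 95% interval of the difference lay inside a 2-fold change in either direction, as it did for 73.3% of all genes, and for 19 it lay inside a 1.5-fold change (45.6% of all genes). For 11 members the interval reached a 2-fold higher level or more, and for 2, PSMB10 and PSMC6, a 2-fold lower level. All 7 constitutive beta ring genes were inside 1.5-fold, whereas 4 of the 6 alpha ring genes had intervals that reached 2-fold higher.

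**Figure D1:**
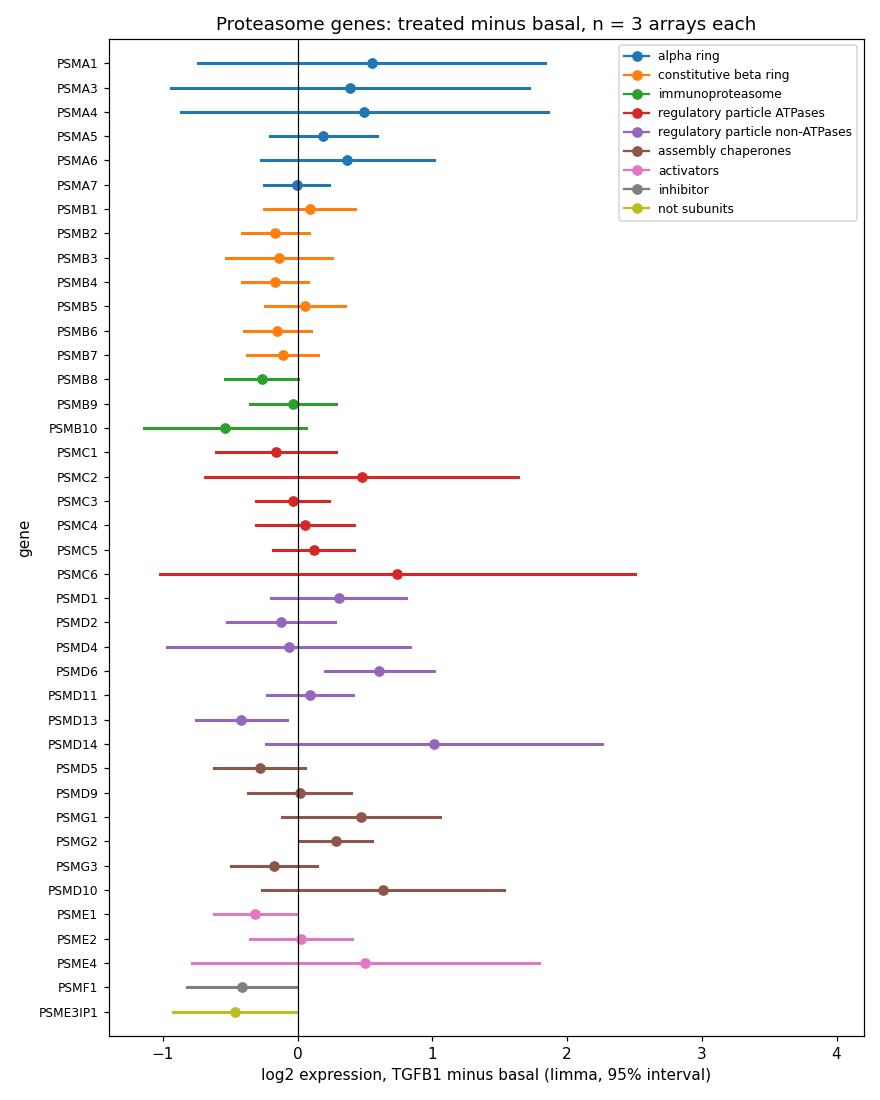
Difference of treated minus basal log2 expression for each of the 40 genes (point) with its 95% interval from the limma fit (line), coloured by role, n = 3 arrays a group. Beta ring genes have short intervals close to 0, several alpha ring and regulatory particle genes have intervals over 2 log2 units wide, and 6 intervals leave out 0 before adjustment.

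**Figure D2:**
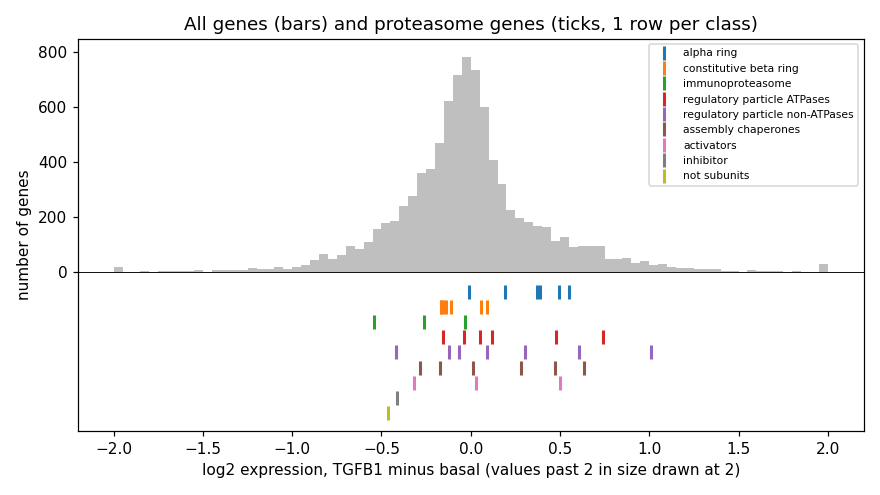
Number of genes (bars, 9162 genes) by treated minus basal log2 difference, with the proteasome genes as ticks in 1 row per role under the axis. The ticks lie within the body of the distribution, from -0.54 for PSMB10 to 1.01 for PSMD14.

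Among the non-ATPase subunits of the regulatory particle, PSMD6 (Entrez gene 538625), a scaffold subunit of the lid, had the smallest p of all members. It measured 10.05, 10.03 and 10.47 log2 in the basal arrays and 10.62, 10.96 and 10.81 in the treated arrays. The treated arrays all lay above the basal arrays, and basal 3 came closest. The difference was 0.61 log2 (SE 0.17), a 1.52-fold higher level with a 95% interval of 1.15 to 2.02 (limma adjusted p = 0.135). The other probe set of PSMD6, at a mean of only 4.87, gave 0.08 log2 (SE 0.20), and the 2 probe sets of this gene differ in the size they give.

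PSMD13 (Entrez gene 513525), another lid subunit, went the other way. It measured 8.14, 8.22 and 7.87 in basal arrays and 7.58, 7.81 and 7.59 in treated arrays, with all treated values lower. The difference was -0.42 log2 (SE 0.14, limma adjusted p = 0.2). PSMD14 (Entrez gene 535683), the metalloprotease that cuts ubiquitin chains from substrates at the entrance of the regulatory particle, had the largest difference of any member at 1.01 log2 (SE 0.51) and an interval of -0.24 to 2.26 (limma adjusted p = 0.386). Its basal values were 8.88, 9.79 and 10.93 and its treated values 10.47, 11.13 and 11.04. Basal 3 thus lay within the treated range, and basal 1 lay 2.04 log2 below basal 3. The scaffold subunits PSMD1 and PSMD2, the ubiquitin receptor PSMD4 and the lid subunit PSMD11 ranged from -0.12 to 0.30 log2.

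Of the 6 ATPases, which form the ring that unfolds substrates and threads them into the core, none had groups apart. PSMC6 (Entrez gene 518637) measured 7.24, 8.88 and 10.10 in the basal arrays and 8.83, 9.70 and 9.92 in the treated arrays. PSMC2 followed the same order, at 8.79, 9.72 and 10.62 against 9.70, 10.46 and 10.41. In both genes basal 3 was the highest and basal 1 the lowest of the 6 arrays, and the differences of 0.74 (SE 0.72) and 0.48 log2 (SE 0.48) were about the size of their standard errors. The second probe sets of PSMC6 and PSMC2 gave 0.62 (SE 0.63) and 0.45 (SE 0.41). Without basal 1 the difference of PSMC6 was -0.0087 log2. PSMC5 measured 9.71, 9.48 and 9.72 in basal and 9.69, 9.90 and 9.68 in treated arrays, with overlapping groups and a difference of 0.12 (SE 0.12), and PSMC1, PSMC3 and PSMC4 lay between -0.16 and 0.05.

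In the alpha rings 5 of 6 differences were above 0 and the median was 0.38 log2, with no member called and every pair of groups overlapping. PSMA6 measured 10.60, 11.18 and 11.62 in basal and 11.35, 11.63 and 11.53 in treated arrays, a difference of 0.37 (SE 0.26, limma adjusted p = 0.545). PSMA5 measured 10.50, 10.68 and 11.04 in basal and 10.83, 11.04 and 10.93 in treated arrays. PSMA1 measured 8.80, 9.61 and 10.69 in basal and 9.58, 10.57 and 10.61 in treated arrays. In all 3 genes basal 1 was the lowest array and basal 3 lay within the treated range or above it. PSMA7 kept within 12.36 to 12.50 over the 6 arrays, with a difference of -0.01 (SE 0.10) and an interval of -0.25 to 0.23.

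The constitutive beta ring was the most even class. Its 7 differences ran from -0.17 for PSMB4 to 0.09 for PSMB1, with 5 below 0 and a median of -0.14 log2. PSMB4, a structural subunit of the beta ring, measured 11.71, 11.59 and 11.53 in basal and 11.41, 11.50 and 11.42 in treated arrays. PSMB2, which is also structural, measured 11.04, 11.11 and 10.92 in basal and 10.84, 10.88 and 10.87 in treated arrays. In both genes the treated arrays all lay lower, with mean differences of -0.17 and -0.16 log2, and neither passed (limma adjusted p = 0.469 and 0.475). The second probe set of PSMB2 gave -0.19 (SE 0.10).

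The catalytic subunits and their immunoproteasome counterparts were followed gene by gene. PSMB5 measured 11.28, 11.03 and 11.23 in basal and 11.17, 11.37 and 11.16 in treated arrays, a difference of 0.05 (interval -0.24 to 0.35). PSMB8 (Entrez gene 282013), which takes its place, measured 10.77, 10.75 and 10.86 in basal and 10.39, 10.65 and 10.55 in treated arrays. For PSMB5 the groups overlapped, and for PSMB8 every treated array was lower, by -0.26 log2 in the mean with an interval of -0.54 to 0.01 (limma adjusted p = 0.299).

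PSMB6 measured 10.77, 10.69 and 10.60 in basal and 10.48, 10.61 and 10.52 in treated arrays (difference -0.15, interval -0.40 to 0.10). Its counterpart PSMB9 (Entrez gene 510593) measured 10.57, 10.49 and 10.55 in basal and 10.27, 10.64 and 10.59 in treated arrays (difference -0.03, interval -0.35 to 0.29). Both pairs of groups overlapped, and TGFB1 1 was the lowest array for each gene.

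PSMB7 measured 10.95, 11.04 and 11.00 in basal and 10.80, 11.03 and 10.83 in treated arrays (difference -0.11, interval -0.37 to 0.16). PSMB10 (Entrez gene 282328), its counterpart, measured 9.12, 8.89 and 9.30 in basal and 8.05, 8.89 and 8.76 in treated arrays. The highest treated array and the lowest basal array of PSMB10 both read 8.89 after rounding, and TGFB1 1 stood apart from the other treated arrays. Its difference was -0.54 (SE 0.25) with an interval of -1.14 to 0.06 (limma adjusted p = 0.337). A further fit, added once the arrays had been inspected, took membership of the set of basal 1, basal 2 and TGFB1 1 as a block. There PSMB10 passed at -0.72 log2 (limma adjusted p = 0.0319, and 0.0319 to 0.584 over its alternatives) and PSMD6 at 0.49 (0.0347, and 0.0241 to 0.423 over its alternatives). In that fit 2 of 40 members passed beside 9.58% of all genes. The sets were read off these same values, so the adjusted p of that fit cannot be taken as error rates. Within the first set of arrays, with 1 treated array, the PSMB10 difference was -0.96, and within the second, with 1 basal array, -0.48.

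**Figure D3:**
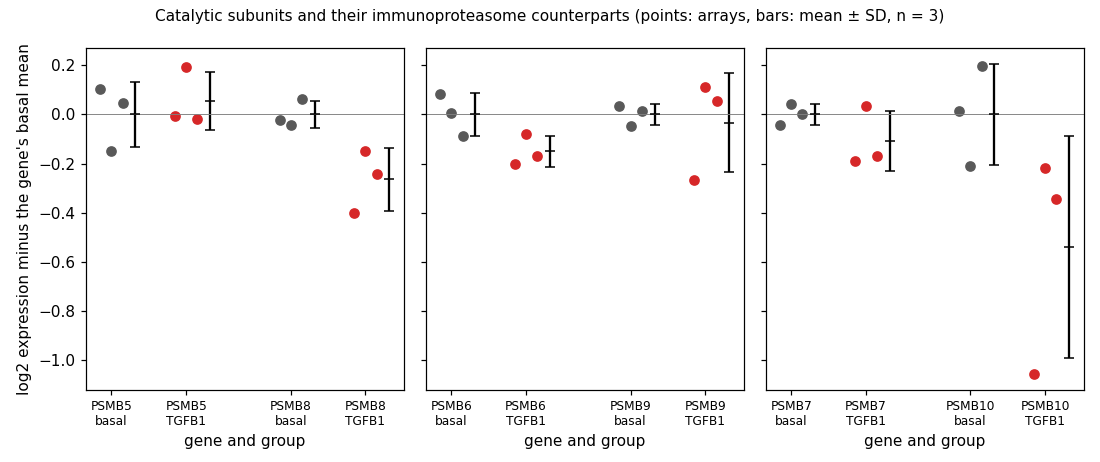
Log2 expression of the 3 catalytic beta subunits and their immunoproteasome counterparts in each array, each gene set to 0 at its basal mean (grey points basal, red points TGFB1, bars mean ± SD, n = 3). Treated PSMB8 lies below its basal arrays, treated PSMB10 is spread over 0.84 log2 with TGFB1 1 lowest, and the other 4 genes overlap.

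Because the immunoproteasome is also the standard form in leukocytes and is driven by interferon, genes of those kinds are given beside it. The leukocyte markers, summed on the linear scale, reached 8.46 to 8.62 log2 in basal and 8.55 to 8.76 in treated arrays. Most of the summed probe sets lay below the array median, so the sums do not show whether leukocytes were present. The summed endothelial markers went from 13.58 to 14.12 in basal and from 13.31 to 13.47 in treated arrays. Of the 9 differences 8 were below 0, 6 of them with every treated array below every basal array. Over all genes 44.4% of differences were above 0, and 15.1% of genes had every treated array lower. CLDN5, at -3.17 log2, was the 1 that passed adjustment (limma adjusted p = 0.0371), and PECAM1, CDH5, ERG and KDR stood at -0.52, -0.57, -0.60 and -0.67. The summed smooth muscle markers went from 10.65 to 10.99 in basal and 12.25 to 12.62 in treated arrays, and 5 of the 8 differences were above 0. TAGLN, at 2.19 log2, was the 1 that passed adjustment (limma adjusted p = 0.0188), and CALD1 stood at 1.04 with every treated array above every basal array. ACTA2, LMOD1 and CNN1 stood at 0.20, 0.11 and 0.09, and SMTN, MYH11 and DES at -0.26, -0.10 and -0.05, each with overlapping groups. The sum is thus not a shift shared by the whole list. The summed fibroblast markers went from 11.81 to 12.15 and from 11.94 to 12.75. In cultures measured in bulk, fewer cells of a type and less RNA per cell cannot be told apart, and the part of these shifts in the differences of PSMB8 and PSMB10 was not tested.

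Of 13 interferon signalling genes, limma called 0 in either direction, with 2 at an unadjusted p under 0.05, both higher. Over all genes 5.99% were higher at that threshold. MX2, an antiviral GTPase, stood at 0.91 log2 (SE 0.21, limma adjusted p = 0.0951), GBP4 at 0.93, ISG15 at 0.70 and MX1 at 0.58, while IRF9, named after its values were seen, stood at -0.66. In all, 7 of the 13 were above 0 and 6 below. With the array-set block, which called 9.58% of all genes, MX2, GBP4 and MX1 passed, at 0.91, 0.62 and 0.81 log2. Among 9 genes of antigen processing and MHC class I limma called 0, with 1 at an unadjusted p under 0.05. That gene was higher, as were 5.99% of all genes at that threshold. Of the 9 differences 8 were above 0, beside 44.4% of all genes. The chaperones CANX (0.39) and PDIA3 (0.27) and the peptide transporter TAP1 (0.16) each had all treated arrays above all basal arrays. So did 8.19% of all genes. CALR stood at 0.27 with overlapping groups. In the gene order of the RefSeq table for assembly ARS-UCD2.0, TAP1 lies between PSMB8 and PSMB9, and TAP2 is on the other side of PSMB8. The neighbours in this stretch therefore had differences of both signs, with TAP2 at 0.04 log2.

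The activators PSME1 and PSME2, which form a mixed ring that opens the core and is induced with the immunoproteasome, are also close neighbours in that gene order. PSME1 (Entrez gene 510041) measured 11.03, 10.94 and 11.16 in basal and 10.56, 10.83 and 10.79 in treated arrays. PSME2 measured 10.41, 10.45 and 10.79 in basal and 10.38, 10.72 and 10.63 in treated arrays. Every treated array of PSME1 was lower, at -0.32 log2 (SE 0.12, interval -0.62 to -0.01, limma adjusted p = 0.267), while PSME2 overlapped at 0.03 (interval -0.35 to 0.41) and turned to -0.02 after a further quantile normalization.

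PSME4, a large single-chain activator of the nucleus, measured 6.90, 6.92 and 8.41 in basal and 7.09, 8.24 and 8.39 in treated arrays. Its values split into a low and a high set of arrays, each holding arrays of both groups, and the difference was 0.50 (SE 0.53). PSMF1 (Entrez gene 617807), the inhibitor, measured 8.92, 8.61 and 8.36 in basal and 8.13, 8.32 and 8.20 in treated arrays, a difference of -0.42 (SE 0.17, interval -0.82 to -0.01, limma adjusted p = 0.273). PSME3IP1 measured 9.15, 8.95 and 9.08 in basal and 8.20, 8.81 and 8.78 in treated arrays, at -0.46 (SE 0.19, limma adjusted p = 0.282). Both had all treated arrays below all basal arrays, and TGFB1 1 was the lowest array of each.

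Among the assembly chaperones PSMG2 (Entrez gene 533993), which pairs with PSMG1 to seed the alpha ring, measured 11.07, 10.93 and 11.14 in basal and 11.24, 11.43 and 11.32 in treated arrays. All treated values were higher, by 0.28 log2 (SE 0.11, interval 0.01 to 0.55, limma adjusted p = 0.267). PSMG1 measured 9.88, 10.04 and 10.72 in basal and 10.47, 10.81 and 10.77 in treated arrays, at 0.47 (SE 0.24), with basal 3 inside the treated range. PSMD5, a chaperone of the base, measured 10.21, 10.39 and 10.16 in basal and 9.75, 10.09 and 10.07 in treated arrays, at -0.28 (SE 0.14), with all treated values lower. PSMD10 (gankyrin), PSMD9 and PSMG3 stood at 0.63, 0.01 and -0.17, each with overlapping groups.

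**Figure D4:**
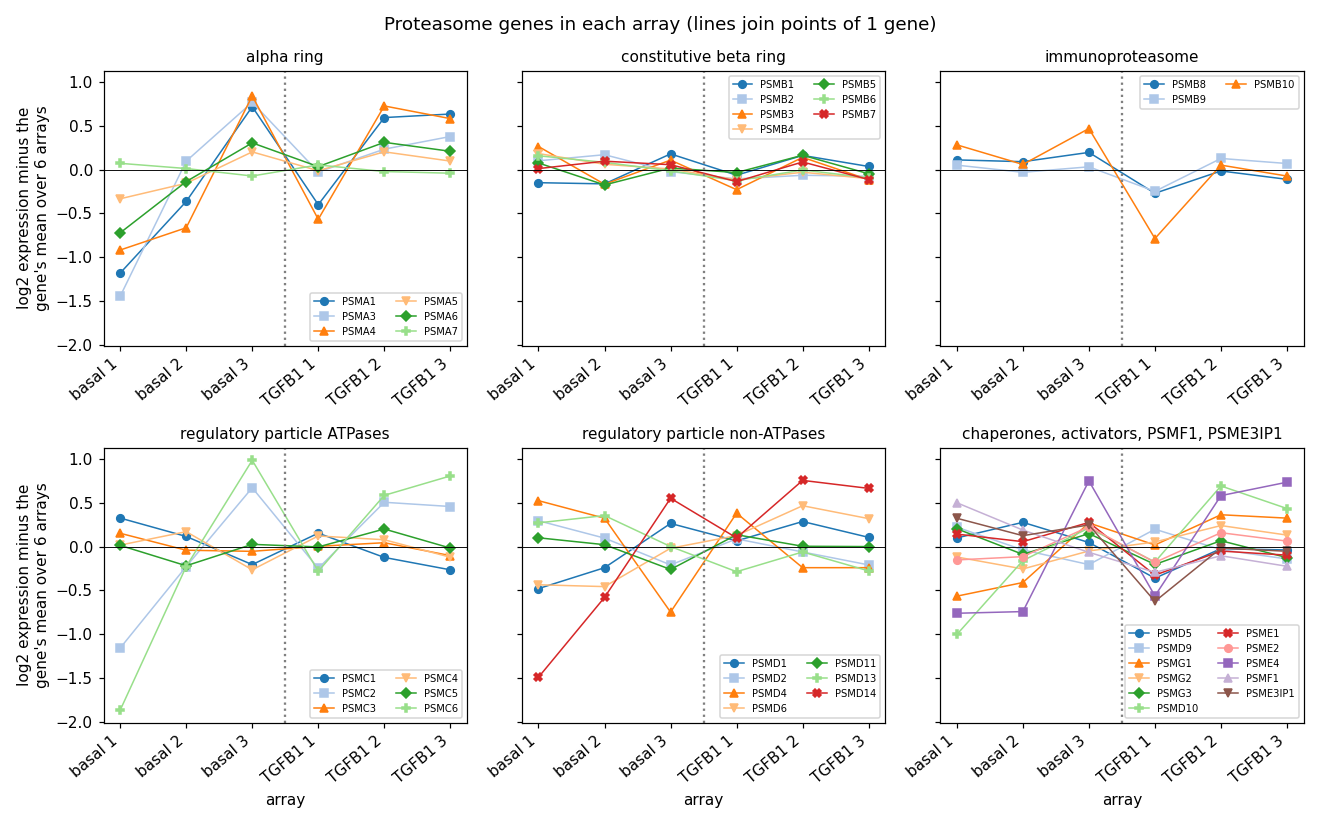
Log2 expression of each gene minus its own mean over the 6 arrays, by array and role (lines join the points of 1 gene and mark no time course, the dotted line parts basal from TGFB1 arrays). Several alpha ring, ATPase and non-ATPase genes are low in basal 1 and high in basal 3, TGFB1 2 and TGFB1 3, while the beta ring genes stay close to their means.

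The members varied unequally among the untreated arrays. The basal range, from the lowest to the highest of the 3 basal arrays, exceeded the size of the treated difference in 31 of the 40 members (77.5%), near the 80.1% of all genes. It was over 1 log2 in 10 members, 25% of them, beside 17% of all genes. These were PSMC6 (2.85), PSMA3 (2.21), PSMD14 (2.04), PSMA1 (1.90), PSMC2 (1.83), PSMA4 (1.76), PSME4 (1.51), PSMD4 (1.27), PSMD10 (1.22) and PSMA6 (1.03), a group named after its values were seen. In 9 of the 10 basal 1 was the lowest of all 6 arrays. Basal 3 lay above basal 1 in these 9. Over all genes it did so in 1152 of the 1555 genes with a basal range over 1 log2, so this order is not particular to the members. PSMD4 did the reverse, at 9.69, 9.49 and 8.41 in basal and 9.54, 8.92 and 8.92 in treated arrays, and its second probe set gave 9.60, 9.50 and 8.40 and then 9.24, 8.89 and 8.83. At the other end, 13 members had a basal range under 0.25 log2 (27.3% of all genes), among them PSMA7, PSMB2, PSMB4, PSMB6, PSMB7, PSMB8, PSMB9 and PSMC3. Subunits of the same ring, which are present in equal numbers in the particle, thus lay in both sets: PSMA3 moved over 2.21 log2 among basal arrays and PSMA7 over 0.14.

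**Figure D5:**
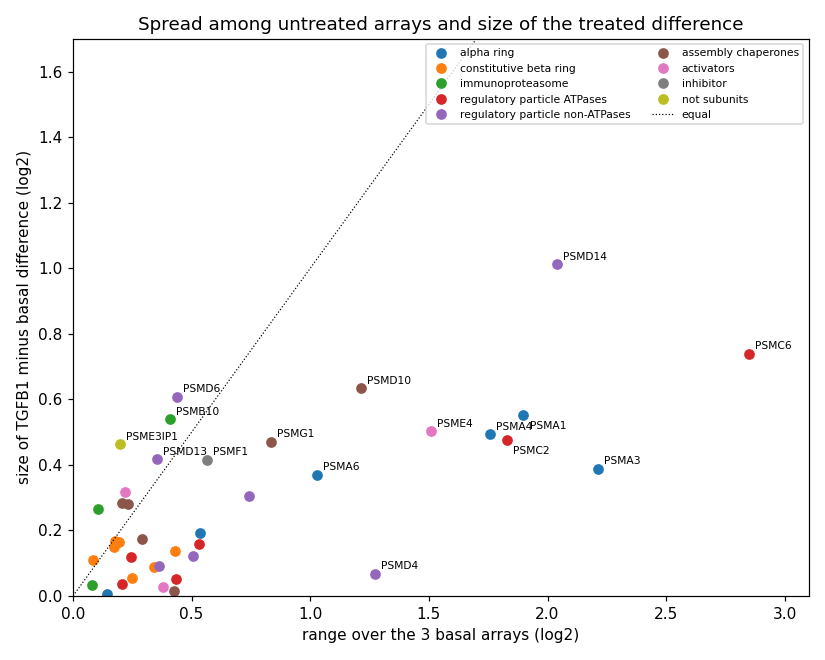
Size of the treated minus basal difference (log2) against the range over the 3 basal arrays (log2) for each gene, coloured by role, with a dotted line where both are equal. Most points lie under the line, and the genes with the largest differences, PSMD14 and PSMC6, have basal ranges of 2.04 and 2.85.

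Some control probe sets of the array moved with this pattern and some did not. The 3′ probe set for the translation factor eIF-4E read 9.37, 9.79 and 10.82 in basal and 10.41, 10.88 and 11.04 in treated arrays. The 3′ probe set for ef1a read 10.35, 11.00 and 11.61 and then 10.87, 11.49 and 11.47. The 3′ probe set for gapd kept within 13.21 to 13.33. The difference of 3′ minus 5′ probe sets, a rough guide to RNA integrity, was largest in basal 1 for eIF-4E (3.46, with the other arrays from 2.64 to 3.20) and for gapd (0.49, with the others from 0.26 to 0.43). For Cyph it was 1.62 in basal 1 and 1.61 in basal 3, and for actin it was largest in TGFB1 2, at 1.86. The part of RNA quality in the spread of the members was not tested.

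Calls among the members also appeared when basal 3 was left out. Without that array 4 members passed (10%), a lower share than the 16.8% of all genes: PSMD6 at 0.75 log2 (limma adjusted p = 0.0241), PSMD14 at 1.54 (0.0357, with 0.0357 to 0.716 over its alternatives), PSMG1 at 0.72 (0.0328, with 0.0328 to 0.734) and PSMD13 at -0.52 (0.0439, with 0.0439 to 0.527). That fit sets basal 1 and basal 2, from one end of the first component, against treated arrays of which TGFB1 2 and TGFB1 3 lie at the other end. The differences within each set of arrays give another view, but the first set holds only 1 treated array and the second only 1 basal array. In the first set TGFB1 1 also differed from basal 1 and basal 2 on the first component. Array position and treatment cannot be told apart there. Among basal 1, basal 2 and TGFB1 1 the treated array was higher by 1.13 for PSMD14, 0.57 for PSMD6 and 0.51 for PSMG1. Among basal 3, TGFB1 2 and TGFB1 3 the same genes gave 0.16, 0.41 and 0.07. The 2 within-set differences had the same sign in 25 of 40 members, 11 higher and 14 lower. The share of all genes with the same sign was not analysed here, so these counts have no background beside them. In the alpha ring all 6 genes were above 0 in the first set and 1 was in the second, while the 6 assembly chaperones had the same sign in both, 4 higher and 2 lower.

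Of 14 partners of the proteasome outside the symbol pattern limma called 0, with 1 higher and 2 lower at an unadjusted p under 0.05. Over all genes 5.99% were higher and 11.4% lower at that threshold. UBQLN1, a shuttle that brings ubiquitinated proteins to the proteasome, measured 9.95, 10.19 and 10.25 in basal and 10.72, 10.50 and 10.62 in treated arrays, at 0.48 log2 (SE 0.13, limma adjusted p = 0.13). AKIRIN2, which guides proteasomes into the nucleus, measured 10.42, 10.28 and 10.13 in basal and 10.05, 9.74 and 9.63 in treated arrays, at -0.47 (SE 0.15, limma adjusted p = 0.189). In both genes the groups were apart, as they were in 23.3% of all genes. The related shuttle UBQLN4 stood at -0.34 and the deubiquitinase UCHL5, which docks on the regulatory particle, at 0.64. Without basal 3, a fit that called 16.8% of all genes, UBQLN1, UBQLN4 and UCHL5 passed, at 0.54, -0.43 and 1.08.

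Of 10 measured transcriptional regulators linked to proteasome genes limma called 0, with 0 at an unadjusted p under 0.05. NFE2L1, which raises proteasome genes when the proteasome is inhibited, measured 10.42, 10.15 and 9.65 in basal and 10.07, 9.38 and 9.53 in treated arrays, at -0.41 log2 (SE 0.26, limma adjusted p = 0.501). Its groups overlapped, and basal 1 was its highest array. STAT3 stood at 0.50, NFYC, a subunit of the CCAAT-binding factor, at -0.35 and FOXO4 at -0.25.

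Upstream of the proteasome, limma called 0 of 8 genes for activating enzymes and ubiquitin-like proteins, with 1 at an unadjusted p under 0.05. That gene was UBA7, the enzyme that activates the ubiquitin-like protein ISG15. It measured 9.16, 8.89 and 8.43 in basal and 7.87, 8.05 and 7.90 in treated arrays, at -0.88 log2 (SE 0.20, limma adjusted p = 0.0940). All treated arrays were lower, as in 15.1% of all genes. UBA7 passed without basal 3 at -1.08 and with the array-set block at -0.80. Those fits called 16.8% and 9.58% of all genes. UBA1, the main ubiquitin-activating enzyme, stood at -0.22. UBA2, SUMO3 and UBA6 stood at 0.95 (SE 0.51), -0.24 (SE 0.14) and 1.04 (SE 0.86), each with overlapping groups. Basal 1 was the lowest array of UBA2 and of UBA6, whose basal values were 5.01, 6.28 and 8.02. UBA2 passed without basal 3, at 1.48.

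Of 11 genes for VCP (p97), the ATPase that extracts ubiquitinated proteins from membranes and complexes, and its co-factors, limma called 0, with 1 higher and 1 lower at an unadjusted p under 0.05. Over all genes 5.99% were higher and 11.4% lower at that threshold. The channel proteins of endoplasmic reticulum degradation DERL1 and DERL2 stood at 0.50 (SE 0.12, limma adjusted p = 0.105) and 0.26 (SE 0.11). Both had all treated arrays above all basal arrays, as did HERPUD1, at 0.36 (SE 0.22), and 8.19% of all genes. UFD1, a co-factor that recognises ubiquitin, stood at -0.42 (SE 0.14) with all treated arrays lower, as in 15.1% of all genes. UBXN1 stood at -0.47. Without basal 3, a fit that called 16.8% of all genes, UFD1 passed, at -0.55. VCP itself stood at -0.04 (SE 0.15).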

How the data were processed

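Gene expression was measured on 6 Affymetrix bovine arrays, 3 basal and 3 TGFB1, from biotin-labelled RNA made from 4 µg of total RNA per the labels. The authors deposited log2 expression values. The submitters' processing notes name RMA and affy without versions. RMA compresses differences near background and gives no detection call. Of the sample columns 0 were left unused. After removal of 112 control probe sets, 24016 were left, of which the annotation gave 1 symbol for 13292, several for 86 and none for 10638. All 40 members matched the RefSeq table of ARS-UCD2.0 by Entrez gene, used for names and gene order only. No sequences are shown.

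Treated and basal arrays were tested over 9162 genes with lmFit and eBayes of limma 3.58.1 (R 4.3.3), group being the only term, two-sided, with Benjamini-Hochberg adjustment. In 10 simulations with 9162 genes, 10.6% of genes changed by 0.5 log2, 53.2% at 1 and 83.4% at 2 were recovered. Over these simulations 73 unchanged genes were called. The simulated noise was independent between genes and arrays and held no component shared by arrays of both groups, so the rates may not hold for these data. The number of arrays limits the precision. Array values are given for the catalytic beta subunits, their counterparts and the 3 members of smallest p in each class, and up to 4 genes of smallest p are named from each other list; any gene named beyond these (such as PSMA7, PSMD4, VCP, UBA1, TAP2, IRF9, COPS4, COPS5 and COPS6) was chosen after its values were seen. The members and lists were chosen with earlier results of these data known. Alternatives were 2 normalizations, 2 filters, limma-trend, robust eBayes, the mean of all probe sets, the replicate number as a block, leaving out each array, and the array-set block, which was added after seeing the data. Figures used matplotlib 3.10.9.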

Additional observations from a re-analysis of the deposited data

How the results depend on the processing

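The count of proteasome genes called was 0 under every alternative except 2: without basal 3 it was 4, and with the array-set block, chosen after seeing the data, it was 2. Over the fits that left out 1 array it ran from 0 to 4. The count over all genes, 158, ran from 0 to 1538 when 1 array was left out, and was 99 by limma-trend and 878 with the array-set block. The labels do not say whether same-numbered arrays are paired. The correlations of their deviations from the group means were 0.67, -0.45 and 0.69, and basal 2 correlated best with TGFB1 1. With the replicate block 0 genes were called over all genes by limma, with 2039 at an unadjusted p under 0.05, and 0 proteasome genes. The median difference of the proteasome genes ran from -0.04 to 0.06 log2 over the alternatives that move it. Some uncalled differences changed sign, most of them near 0, but also PSMC6 (0.74) and PSMA3 (0.39), which did so without basal 1. With the array-set block PSMA7 stood at 0.026, PSMD4 at 0.23 and PSME2 at -0.082, and PSME2 stood at -0.022 after a further quantile normalization. When 1 array was left out, PSMA3 ran from -0.24 to 0.87, PSMA7 from -0.045 to 0.027, PSMB5 from -0.019 to 0.11, PSMB9 from -0.11 to 0.081, PSMC3 from -0.074 to 0.029, PSMC4 from -0.068 to 0.15, PSMC6 from -0.0087 to 1.42, PSMD4 from -0.46 to 0.18, PSMD9 from -0.085 to 0.13, PSMD11 from -0.015 to 0.17, PSME2 from -0.046 to 0.15 and COPS7B from -0.14 to 0.012. The causes were not tested. Signal over background was not analysed here.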

Other observations

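The COP9 signalosome is a relative of the lid of the proteasome that removes NEDD8 from cullin ligases. Of its 7 measured genes limma called 0, with 0 at an unadjusted p under 0.05, and the differences ran from -0.28 log2 for COPS3 to 0.28 for COPS4. COPS4 measured 7.99, 9.13 and 10.58 in basal and 8.55, 10.01 and 9.97 in treated arrays, and COPS6 measured 9.79, 9.52 and 9.50 and then 9.61, 9.79 and 9.60. COPS5, the subunit that cuts NEDD8, measured 9.21, 9.54 and 10.51 and then 9.40, 10.27 and 10.24. Basal 1 was the lowest and basal 3 the highest of the 6 arrays in COPS4 and COPS5, the order seen in PSMC6 and PSMA1, while COPS6 kept between 9.50 and 9.79. These 3 genes were chosen after their values were seen. GPS1, COPS8 and COPS7B stood at -0.24, -0.09 and -0.08.

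Among 13 ubiquitin ligases and deubiquitinases known to act on TGF-beta signalling limma called 0, with 2 lower at an unadjusted p under 0.05. Over all genes 11.4% were lower at that threshold. The deubiquitinase USP11 measured 8.72, 8.59 and 7.89 in basal and 7.59, 7.74 and 7.73 in treated arrays, at -0.71 log2 (SE 0.23, limma adjusted p = 0.19). STUB1, a ligase that works with chaperones, measured 9.19, 9.24 and 8.79 in basal and 8.71, 8.74 and 8.60 in treated arrays, at -0.39 (SE 0.15, limma adjusted p = 0.251). In both genes every treated array lay below every basal array, as in 15.1% of all genes. Both passed without basal 3, at -0.97 and -0.53, in a fit that called 16.8% of all genes. FBXW7, the substrate receptor of a cullin ligase, stood at -0.32 with overlapping groups.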
